A study of Mus musculus with 6 samples.

Results

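The genes described here encode chemokines, interleukins and the receptors for both, as read by RNA-seq in cultures of mouse sensory neurons taken from the dorsal root ganglia (DRGs) beside the spinal cord. They were taken by symbol: chemokine ligands (Ccl and Cxcl with a number, Cx3cl1, Xcl1), chemokine receptors (Ccr, Cxcr, Cx3cr1 and the atypical Ackr), and every gene whose symbol starts with Il and a number. Of 35976 genes in the count tables, 144 matched, and the 79 with at least 10 raw counts in at least 3 of the 6 libraries were kept. These 79 comprised 37 ligands (23 chemokines and 14 interleukins or interleukin antagonists) and 42 receptors (12 chemokine receptors and 30 chains or accessory proteins of interleukin receptors). All 79 also passed the low-count filter of the test across the whole table, which left 18277 genes.

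The cultures came from lumbar DRGs of adult wildtype C57BL/6 mice of both sexes, digested with dispase and collagenase and kept in serum with nerve growth factor and glial cell line-derived neurotrophic factor. The methods name no further enrichment of neurons after filtration and centrifugation. Vehicle was added to 3 cultures and HC-HA/PTX3 at 15 µg/mL to 3 others, 24 h after plating, and exposure lasted 24 h. HC-HA/PTX3 is a complex of hyaluronan, heavy chains of inter-alpha-inhibitor and pentraxin 3, purified from human amniotic membrane. Sequencing gave 42516054, 42617496 and 54117547 gene counts for the vehicle cultures, and 37998071, 37434266 and 38420247 for the treated ones. Levels are in CPM, counts per 1000000 after TMM scaling, where 1 CPM stood for 37.1 to 56.0 counts. The sources do not say whether same-numbered cultures shared animals. P-values of the main test, which compared cultures of the same number, measure the spread of those differences among these cultures.

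Chemokines are small secreted proteins that draw leukocytes along a gradient by binding G protein-coupled receptors, whereas atypical chemokine receptors bind the same ligands without that signal and set how much ligand remains. Interleukins act through receptor chains that are often shared between several ligands and signal either through JAK kinases and STAT factors or, in the IL-1 family, through MyD88 and NF-kB. In sensory ganglia, neurons, satellite glia, fibroblasts and resident macrophages produce some of these signals, and several of them act on the neurons themselves.

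Of the 79 genes, 8 were called between HC-HA/PTX3 and vehicle (10.1%), against 8.7% of the 18277 tested genes. Genes counted as called where edgeR's quasi-likelihood test gave adjusted p < 0.05 together with a fitted log2 fold change beyond 0.5 in either direction, with the replicate number as a block, so that treated and vehicle cultures of the same number were compared. Higher after HC-HA/PTX3 were 2 of the 79 (Il7 and Il22ra1), against 3.32% of all tested genes. Lower were 6, among them Ccl2, Ccl6, Cxcl14, Il1rn and Il17rc, against 5.38% of all tested genes. Values are given below for 7 of the 8. The shares of called genes thus lay near those of the whole table. Without the replicate block, edgeR's test called 0 of the 79 and 0% of the 18277 genes, where 8 of the 79 and 2089 of all tested genes had an unadjusted p-value under 0.05. The 3 treated cultures lay wholly above the 3 vehicle cultures in 7 of the 79 genes, against 9.44% of all tested genes, and wholly below them in 3, against 8.57%.

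Among ligands, 1 of 37 was called higher and 4 lower, and the median fitted log2 fold change was -0.0096. In the receptors, 1 of 42 was called higher and 2 lower, with a median of 0.024. The median of all tested genes was -0.0067. Over the alternatives the ligand median ran from -0.12 (without replicate 1) to 0.071 (without replicate 2), and the receptor median from -0.055 to 0.056. Upper-quartile scaling moved the median of all tested genes to 0.025 and, among the 79, gave 3 higher and 5 lower calls (37.5% higher, against 25% with TMM), because Il3ra passed and Il1rn did not. Fitted values were above 0 in 18 ligands and 22 receptors and below 0 in 19 ligands and 20 receptors.

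**Figure D1:**
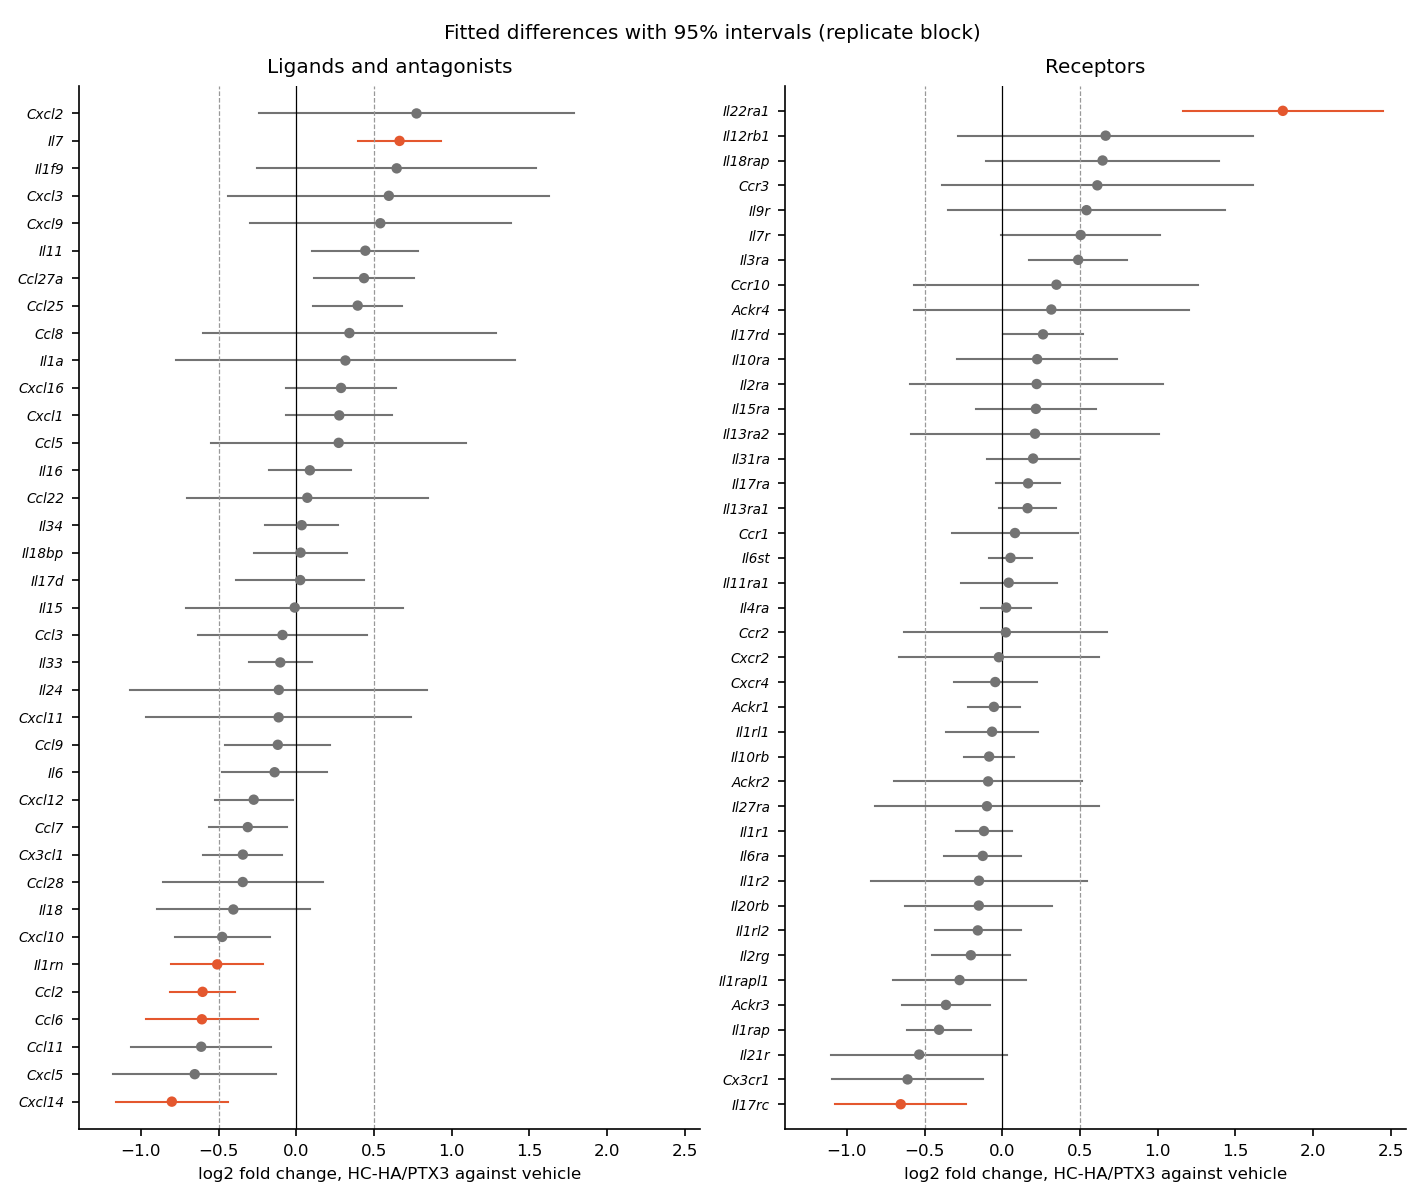
Fitted log2 fold changes of HC-HA/PTX3 against vehicle for 37 ligands (left) and 41 of the 42 receptors (right), each with its 95% interval from edgeR's fit with the replicate block (n = 3 cultures per group). Orange marks called genes, dashed lines stand at 0.5 on either side of 0, and the widest intervals belong to genes below 1 CPM.

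Ccl2, the main attractant of CCR2-bearing monocytes, lies at chr11:82035571-82037453 of mm10. Its level was 13, 23.7 and 23.1 CPM in vehicle replicates 1, 2 and 3 and 8.33, 16.2 and 14.9 CPM in the HC-HA/PTX3 cultures of the same numbers. Each treated culture was below its partner, although the groups overlapped because replicate 1 was low in both. The means were 19.9 ± 6.04 and 13.2 ± 4.25 CPM (SD, n = 3 each), and the fitted log2 fold change was -0.60 (SE 0.094, edgeR with the replicate block, adjusted p = 0.00245). Without the replicate block the adjusted p-value was 0.536, the highest over its alternatives, which ran from 4.78e-06 to 0.536.

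Ccl6, a CC chemokine made mostly by myeloid cells (chr11:83587882-83593087), was measured at 4.67, 6.19 and 7.79 CPM in the vehicle cultures and 3.66, 4.62 and 3.83 CPM after HC-HA/PTX3. No treated culture reached the lowest vehicle culture, and the gap within a pair was widest in replicate 3. The fitted log2 fold change was -0.61 (SE 0.16, edgeR, adjusted p = 0.0277), and the call was lost whichever pair was left out (adjusted p = 0.0661, 0.0696 and 0.181 without replicates 1, 2 and 3). The log2 fold changes were then -0.72, -0.70 and -0.37, so the size fell below the threshold only without replicate 3. Over all alternatives the adjusted p-value ran from 0.000748 to 0.383. In whole cultures, fewer cells of a type and less RNA per cell cannot be told apart.

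Cxcl14, a chemokine of epithelia and fibroblasts whose signalling receptor is debated (chr13:56288643-56296551), had the lowest fitted value of all ligands. The vehicle cultures held 12.9, 16.3 and 13.2 CPM and the treated cultures 8.11, 12.2 and 5.13 CPM. The groups were separate, and HC-HA/PTX3 replicate 3 was the lowest of the 6 cultures. The log2 fold change was -0.80 (SE 0.16, edgeR, adjusted p = 0.00817), and it was -0.52 when the cultures numbered 3 were left out.

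Per kilobase of exon, the scale on which genes of different length can be compared, the most abundant chemokine ligands on the vehicle mean were Ccl11 at 25, Cxcl12 at 18.7, Ccl7 at 18.1 and Ccl2 at 17.5 CPM per kb. The same 4 led in each vehicle culture, with Ccl11 first in replicates 1 and 2 and Cxcl12 first in replicate 3. Ccl11, the eosinophil attractant eotaxin, was at 18.2, 37 and 26 CPM with vehicle and 12.5, 37.7 and 9.9 CPM with HC-HA/PTX3. It was lower in the treated culture of pairs 1 and 3 and not in pair 2. Its fitted log2 fold change of -0.61 was large enough, but its p-value missed the threshold (edgeR, adjusted p = 0.0599). Single pairs moved the value of Ccl11, to -0.22 without replicate 3 and to -0.97 without replicate 2, where it was called (adjusted p = 0.0228, range over its alternatives 4.49e-07 to 0.821). Ccl7, a monocyte attractant encoded next to Ccl2, was at 8.19, 16.1 and 19.3 CPM with vehicle and 7.11, 14.2 and 13.3 CPM after treatment, below its partner in all 3 pairs (log2 fold change -0.31, edgeR, adjusted p = 0.0799). Cxcl12, which guides and retains CXCR4-bearing cells, was at 116, 106 and 237 CPM with vehicle, with the high value in replicate 3. The HC-HA/PTX3 cultures held 111, 103 and 145 CPM of Cxcl12, and the difference was not called (log2 fold change -0.27, edgeR, adjusted p = 0.121). Pair 3 carried most of it, as the value was -0.037 without replicate 3, against -0.40 without replicate 2.

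Several further chemokines stood near the thresholds without passing both. Cxcl10, an interferon-induced attractant of T cells, was at 9.64, 6.91 and 22.1 CPM with vehicle and 5.23, 5.28 and 19 CPM with HC-HA/PTX3. Replicate 3 was the highest culture in both groups and every treated culture was below its partner, but the log2 fold change of -0.48 was under the required size (edgeR, adjusted p = 0.0366). For Cxcl10 the value was -0.29 without replicate 1 and -0.62 without replicate 3. Cxcl5, a neutrophil attractant that sensitizes skin to pain after ultraviolet burn, was at 0.474, 1.49 and 3.96 CPM with vehicle and 0.296, 1.27 and 2.03 CPM after treatment. The spread between vehicle cultures was larger than the difference within any pair, and its log2 fold change of -0.65 (95% interval -1.18 to -0.13) did not pass (edgeR, adjusted p = 0.08). Without replicate 3 the value for Cxcl5 was -0.36. Cx3cl1, the membrane-bound chemokine fractalkine that neurons present to CX3CR1-bearing phagocytes, was at 10.7, 11.9 and 8.45 CPM with vehicle and 8.3, 10.2 and 6.15 CPM with HC-HA/PTX3 (log2 fold change -0.34, edgeR, adjusted p = 0.061).

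In 2 chemokines every treated culture exceeded every vehicle culture, though neither was called. Ccl25, a thymus and gut chemokine, was at 5.94, 6.31 and 6.25 CPM with vehicle and 7.36, 7.57 and 9.5 CPM with HC-HA/PTX3 (log2 fold change 0.40, edgeR, adjusted p = 0.0557). Ccl27a, known from skin, was at 6.69, 5.56 and 5.63 CPM with vehicle and 7.44, 7.23 and 9.55 CPM after treatment (log2 fold change 0.44, edgeR, adjusted p = 0.0589). The exons of Ccl25 overlap those of Elavl1 by 204 bases on the opposite strand, and those of Ccl27a overlap Il11ra1 by 8 bases. The strand setting of the counting is not given in the sources used here, so reads from such overlaps could not be assigned. Xcl1 was among the symbols below the count minimum.

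Of the 14 interleukins and antagonists, Il7 was called higher and Il1rn lower. Il7 encodes a growth factor for lymphocytes made by stromal cells and lies at chr3:7569994-7613760. It was measured at 6.02, 5.03 and 7 CPM in vehicle replicates 1, 2 and 3 and at 8.84, 7.76 and 12.2 CPM after HC-HA/PTX3. Every treated culture was above every vehicle culture, and the means were 6.02 ± 0.986 and 9.6 ± 2.33 CPM (SD, n = 3 each). The log2 fold change was 0.66 (SE 0.12, edgeR with the replicate block, adjusted p = 0.00499), with adjusted p-values from 8.35e-05 to 0.342 over its alternatives. A noncoding antisense gene, Gm16685, shares 105 exon bases with Il7.

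Il1rn encodes the secreted IL-1 receptor antagonist, which occupies the IL-1 receptor without activating it (chr2:24336853-24351494). Its level was 19.1, 26.7 and 10.8 CPM with vehicle and 11.9, 24.7 and 6.25 CPM with HC-HA/PTX3. All 3 pairs were lower after treatment, yet the groups overlapped widely, with replicate 2 high and replicate 3 low in both. The log2 fold change of -0.51 lay just past the size threshold (SE 0.13, edgeR, adjusted p = 0.0245), and the call was lost with upper-quartile scaling, where the value was -0.48. It was lost too without replicate 1 (adjusted p = 0.162) and without replicate 3 (adjusted p = 0.0872), and the adjusted p-value ran from 0.00021 to 0.839 over the alternatives.

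On the vehicle mean per kilobase of exon, the most abundant interleukins were Il11 at 14.9, Il33 at 7.8 and Il34 at 7.43 CPM per kb. Their order turned with the culture: Il11 was at 2.16, 10.8 and 31.6 CPM per kb in vehicle replicates 1, 2 and 3, against 9.17, 9.81 and 4.41 for Il33 and 9.55, 7.97 and 4.76 for Il34. Il11 thus ranked 4 of the interleukins in replicate 1, and first in replicate 2 by a small margin and in replicate 3 by a large one. Il11, a cytokine of the IL-6 family that acts on fibroblasts among other cells, was at 4.49, 22.6 and 65.8 CPM in vehicle replicates 1, 2 and 3. After HC-HA/PTX3 it was at 9.08, 33.5 and 63.9 CPM. The cultures numbered 3 held several times the level of those numbered 1 in both groups, and the treated culture was above its partner in pairs 1 and 2 but not in pair 3. The fitted log2 fold change was 0.44 (95% interval 0.10 to 0.79, edgeR, adjusted p = 0.0686), and without replicate 3 it was 0.77 and called (adjusted p = 0.00074), over a range of 0.00052 to 0.968 among its alternatives. Il33, an alarmin stored in the nucleus, was at 26.5, 28.3 and 12.7 CPM with vehicle and 24.7, 28.8 and 10.7 CPM after treatment, with replicate 3 the lowest in both groups (log2 fold change -0.10, edgeR, adjusted p = 0.472). Il34, a ligand of the macrophage growth receptor CSF1R, was at 18.7, 15.6 and 9.32 CPM with vehicle and 21.9, 15.3 and 8.63 CPM with HC-HA/PTX3, again lowest in replicate 3 (log2 fold change 0.035, edgeR, adjusted p = 0.853).

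The inflammatory interleukins best known from injured nerve were scarce. Il6, which sensitizes nociceptors through gp130, was at 2.67, 5.05 and 6.88 CPM with vehicle and 2.48, 5.41 and 5.26 CPM with HC-HA/PTX3 (log2 fold change -0.14, 95% interval -0.48 to 0.20, not called). Il1b, the secreted agonist of the IL-1 receptor, did not reach the count minimum, with 6, 10 and 6 raw counts in the vehicle libraries and 7, 11 and 9 in the treated ones. Il18, another product of inflammasome cleavage, was at 1.72, 1.98 and 0.589 CPM and 1.29, 1.48 and 0.457 CPM, and Il15, which supports natural killer cells, was at 0.599, 1 and 0.429 CPM and 0.835, 0.659 and 0.482 CPM, in vehicle and treated cultures respectively. Neither was called. The remaining interleukins (Il17d, Il18bp, Il16, Il24, Il1f9 and Il1a) had fitted log2 fold changes from -0.11 to 0.65, and none was called.

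The count minimum removed 65 of the 144 symbols, 42 of 79 ligand symbols and 21 of 63 receptor symbols, and 11 of the 65 had no count in any library. Il9r was just inside the minimum, with 4, 8 and 19 counts in the vehicle libraries and 7, 10 and 18 in the treated libraries. Just outside was Ccl4, a macrophage chemokine, with 7, 8 and 9 and 10, 9 and 5 counts. Ccl12, an attractant of monocytes, was also outside, with 11, 19 and 3 counts with vehicle and 3, 2 and 1 with HC-HA/PTX3, and was chosen for mention after its counts were seen.

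To show what the sequence before the start of these genes holds, the 250 bases upstream of RefSeq transcript starts (GRCm38.p6) were searched on both strands for 3 motifs. These were the AP-1 letters TGANTCA, the STAT letters TTCNNNGAA and the kappaB motif of NF-kB, given by name because its letters are ambiguous. Matches of the same motif may overlap, and windows of 61 of the 79 genes (74 windows) were held. A kappaB match was present in 11 of these 74 windows (14.9%), against 3.9% of 32851 promoters. AP-1 letters were in 12 (16.2%, against 6.75%), and STAT letters in 5 (6.76%, against 7.02%). Called were 0 of the 11 genes with a kappaB match, 2 of the 12 with AP-1 letters (Il1rn and Il22ra1) and 1 of the 5 with STAT letters (Cxcl14). With 8.7% of all tested genes called, numbers this small do not tell the motifs apart. Windows of Ccl6 and Il17rc held none of the 3. A match is only an occurrence of these letters. The windows below are those of the called ligands with a match, and of 3 picked from other ligands with a match that differed widely between replicates. Matched letters are in capitals, and windows run 5′ to 3′ on the strand of the gene.
Cxcl14, chr13:56296552-56296801, minus strand, intergenic, STAT letters from 191 bases before the start: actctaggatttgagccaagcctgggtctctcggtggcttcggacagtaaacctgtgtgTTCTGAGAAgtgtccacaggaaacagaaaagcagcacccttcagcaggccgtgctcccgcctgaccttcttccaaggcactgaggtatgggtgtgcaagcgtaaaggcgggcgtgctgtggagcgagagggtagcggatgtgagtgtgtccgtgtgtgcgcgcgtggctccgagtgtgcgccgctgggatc
Il1rn, first of its 3 starts, chr2:24336610-24336859, plus strand, intergenic but for 7 exon bases, AP-1 letters from 141 bases before the start: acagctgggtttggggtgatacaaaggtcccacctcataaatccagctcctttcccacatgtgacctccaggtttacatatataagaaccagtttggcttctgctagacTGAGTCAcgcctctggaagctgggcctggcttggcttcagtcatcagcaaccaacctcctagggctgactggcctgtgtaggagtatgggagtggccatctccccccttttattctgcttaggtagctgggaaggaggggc
Cxcl1, chr5:90890995-90891244, plus strand, intergenic but for 4 exon bases, 2 overlapping kappaB matches from 71 and 70 bases before the start: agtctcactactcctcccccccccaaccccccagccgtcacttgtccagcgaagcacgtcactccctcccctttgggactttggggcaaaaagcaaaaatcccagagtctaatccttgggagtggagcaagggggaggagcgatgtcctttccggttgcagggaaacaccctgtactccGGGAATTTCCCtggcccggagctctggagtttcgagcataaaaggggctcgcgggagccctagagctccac
Cxcl10, chr5:92348890-92349139, minus strand, in an intron of Art3, kappaB matches from 159 and 103 bases and AP-1 letters from 74 bases before the start: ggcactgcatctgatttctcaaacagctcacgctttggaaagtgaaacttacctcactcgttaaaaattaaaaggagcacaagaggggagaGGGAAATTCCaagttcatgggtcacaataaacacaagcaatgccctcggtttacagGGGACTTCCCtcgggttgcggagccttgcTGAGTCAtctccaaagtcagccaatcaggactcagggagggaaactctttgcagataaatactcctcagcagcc
Il11, second of its 2 starts, chr7:4778142-4778391, minus strand, in an intron of its longer transcript, AP-1 letters from 98 bases before the start: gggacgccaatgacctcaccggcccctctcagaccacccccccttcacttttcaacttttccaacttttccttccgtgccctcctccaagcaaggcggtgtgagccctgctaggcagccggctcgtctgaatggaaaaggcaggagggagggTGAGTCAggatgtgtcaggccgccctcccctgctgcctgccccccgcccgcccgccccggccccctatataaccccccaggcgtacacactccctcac

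None of the 12 chemokine receptors was called higher. Cx3cr1, the fractalkine receptor of macrophages and microglia, had the largest uncalled difference of the chemokine receptors above 1 CPM. It was at 1.92, 2.03 and 1.07 CPM with vehicle and 1.1, 1.29 and 0.838 CPM with HC-HA/PTX3, lower in all 3 pairs (log2 fold change -0.61, 95% interval -1.09 to -0.12, edgeR, adjusted p = 0.0783).

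The most abundant chemokine receptors per kilobase of exon with vehicle were Ackr1 at 44, Cxcr4 at 5.2 and Ackr3 at 3.09 CPM per kb. Ackr1, an atypical receptor of venular endothelium and red cells, was at 76.7, 48.2 and 60.5 CPM with vehicle and 69.2, 43.7 and 65.8 CPM after treatment, a log2 fold change of -0.054 (95% interval -0.22 to 0.12). Its exons share 361 bases with Cadm3 on the same strand, and reads from those bases cannot be told apart between the genes. Cxcr4, the signalling receptor of CXCL12, was at 13.4, 10.4 and 4.41 CPM with vehicle and 12.9, 9 and 4.9 CPM with HC-HA/PTX3, with the replicate 3 cultures lowest and no treatment difference called (log2 fold change -0.045). Ackr3, which clears CXCL12 by internalizing it, was at 8.14, 14.7 and 8.18 CPM with vehicle and 7.17, 12.3 and 5.15 CPM after treatment, lower in all 3 pairs and not called (log2 fold change -0.36, edgeR, adjusted p = 0.0756). Of the other chemokine receptors, Ccr2, on monocytes, was at 1.07, 0.861 and 0.714 CPM and 0.647, 1 and 1.02 CPM, and Cxcr2, on neutrophils, at 0.425, 0.768 and 0.804 CPM and 0.512, 0.58 and 0.863 CPM, in vehicle and treated cultures respectively. The remaining uncalled ones had fitted log2 fold changes between -0.091 and 0.61, with wide intervals at their low counts.

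Of 30 interleukin receptor genes, Il22ra1 was called higher and Il17rc lower. Il22ra1, the chain that makes epithelial and stromal cells sensitive to IL-22 (chr4:135728172-135752140), had the highest fitted value of all 79 genes. Its raw counts were 22, 9 and 37 with vehicle and 62, 53 and 71 after treatment, or 0.549, 0.209 and 0.661 CPM and 1.67, 1.4 and 1.8 CPM. Every treated culture held more than any vehicle culture. The means were 0.473 ± 0.235 and 1.62 ± 0.206 CPM (SD, n = 3 each), and the log2 fold change was 1.81 (SE 0.29, 95% interval 1.16 to 2.45, edgeR with the replicate block, adjusted p = 0.00284). The counts were low, and the value ran from 1.51 without replicate 2 to 2.07 without replicate 3, called each time. The 250 bases before its start are shown because its level rose most, and they hold AP-1 letters, in capitals, from 222 bases before the start.
Il22ra1, chr4:135727909-135728158, plus strand, intergenic: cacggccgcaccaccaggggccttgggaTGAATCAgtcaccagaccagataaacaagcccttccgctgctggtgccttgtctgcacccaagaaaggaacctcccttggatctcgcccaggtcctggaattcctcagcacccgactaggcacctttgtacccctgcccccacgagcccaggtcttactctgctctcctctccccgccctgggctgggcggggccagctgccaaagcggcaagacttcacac

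Il17rc, a chain of the receptor for IL-17A and IL-17F (chr6:113471427-113483140), was at 4, 6.05 and 3.2 CPM with vehicle and 3.18, 4.25 and 1.37 CPM with HC-HA/PTX3. Each treated culture was below its partner and the groups overlapped. The log2 fold change was -0.65 (SE 0.19, edgeR, adjusted p = 0.037), and the call was lost whichever pair was left out, with adjusted p-values of 0.0695, 0.108 and 0.153 without replicates 1, 2 and 3. The log2 fold changes were then -0.82, -0.74 and -0.41, the last below the size threshold. Over the alternatives its adjusted p-value ran from 0.00112 to 0.669. Il17ra, the chain it pairs with, was at 16.9, 31.8 and 35.9 CPM with vehicle and 21.6, 36.6 and 34.8 CPM after treatment and was not called (log2 fold change 0.17).

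**Figure D2:**
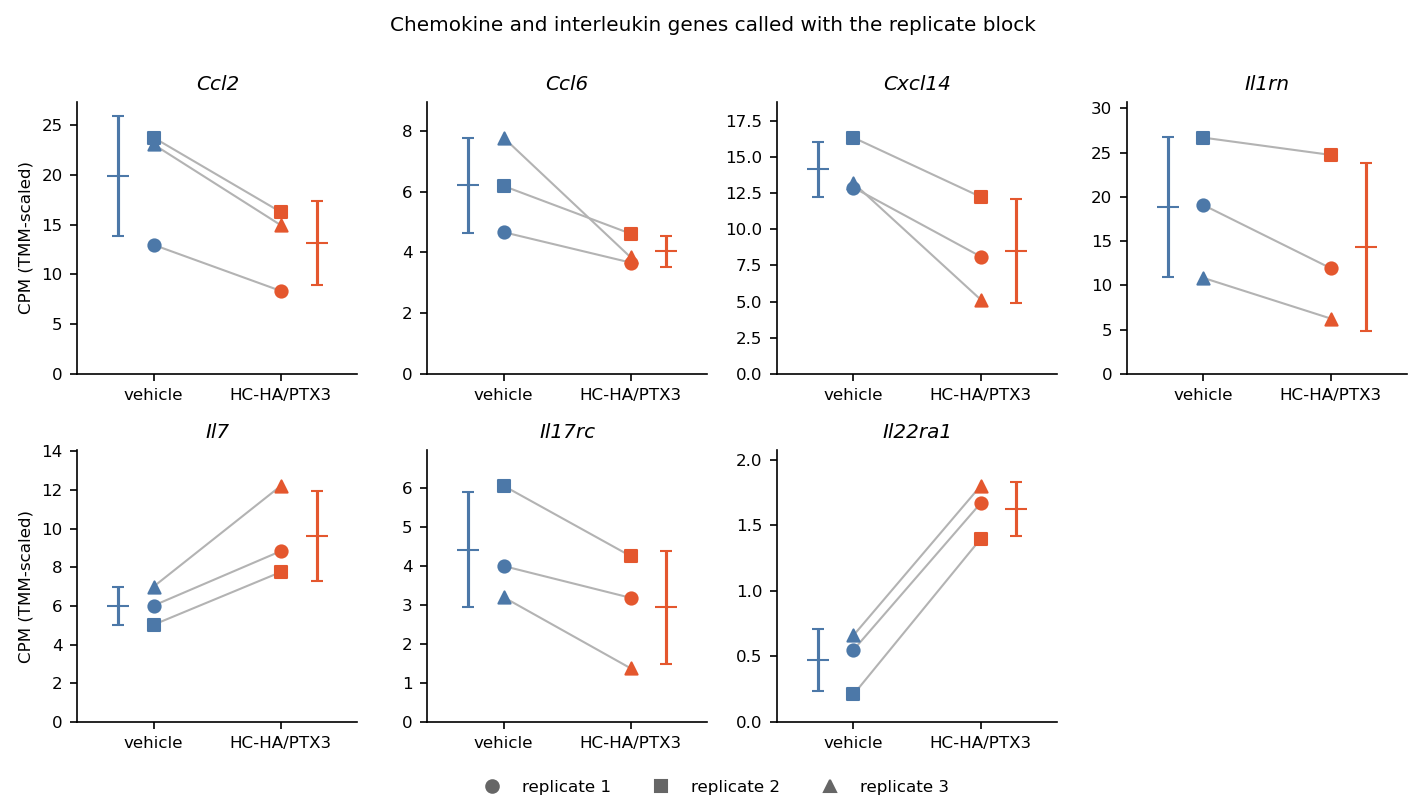
Levels of 7 of the 8 called genes in CPM on a linear axis from 0, in 3 vehicle (blue) and 3 HC-HA/PTX3 cultures (orange). Grey lines join cultures of the same replicate number, bars beside the points give mean and SD (n = 3), and all 3 lines slope the same way in each of the 7 panels.

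Adjusted p-values under 0.05 without a large enough difference were found in 2 receptor chains. Il3ra, the specific chain of the IL-3 receptor, was at 3.9, 5.17 and 4.07 CPM with vehicle and 6.44, 6.46 and 5.48 CPM with HC-HA/PTX3, with separate groups (log2 fold change 0.49, edgeR, adjusted p = 0.0371). Il1rap, the accessory chain that IL-1, IL-33 and IL-36 receptors share, was at 111, 99 and 49.8 CPM with vehicle and 90.9, 84.8 and 30.2 CPM after treatment. Replicate 3 was low in both groups, and each treated culture was below its partner (log2 fold change -0.41, edgeR, adjusted p = 0.0132). For Il1rap the value was -0.24 without replicate 3 and -0.51 without replicate 2. Il21r, a lymphocyte receptor, had the largest uncalled difference among interleukin receptors above 1 CPM, at 0.899, 1.93 and 0.857 CPM with vehicle and 0.808, 1.35 and 0.432 CPM with HC-HA/PTX3 (log2 fold change -0.53, 95% interval -1.10 to 0.033).

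Il6st, which encodes gp130, the shared signalling chain of the IL-6 family, was the most abundant interleukin receptor gene at 52.2 CPM per kb, ahead of Il4ra at 22.7 and Il10rb at 12.3. Il6st was at 638, 607 and 494 CPM with vehicle and 668, 641 and 498 CPM with HC-HA/PTX3. The 95% interval of its log2 fold change was -0.083 to 0.19. Il4ra, a receptor chain of IL-4 and IL-13, was at 108, 180.4 and 121 CPM with vehicle and 125, 168 and 119 CPM after treatment (log2 fold change 0.026, 95% interval -0.13 to 0.19). Il10rb, a chain shared by IL-10, IL-22 and type III interferon receptors and the partner of Il22ra1, was at 50.2, 47.9 and 42.1 CPM and 44.2, 47.9 and 40.2 CPM, and its exons overlap those of Gm21970 on the same strand. None of the 3 was called.

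Known pairs of ligand and receptor were compared on the scale of CPM per kilobase of exon. Ccl2 stood at 17.5 with vehicle and 11.6 with HC-HA/PTX3, and its receptor Ccr2 at 0.131 in both. For Cx3cl1 the values were 2.63 and 2.09, and for Cx3cr1 0.371 and 0.239, neither called. Il7 went from 1.06 to 1.7, while Il7r, its specific receptor chain, was at 0.189 and 0.268 CPM per kb, higher in all 3 pairs and not called (log2 fold change 0.50, 95% interval -0.0065 to 1.02).

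In most of these pairs the ligand was the more abundant transcript. Il11 was at 14.9 CPM per kb with vehicle and its receptor Il11ra1 at 1.3, and Il33 was at 7.8 and its receptor Il1rl1 at 2.04, although these 2 were level in vehicle replicate 3 (4.41 and 4.42). Il34 was at 7.43 and Csf1r at 1.53. The order was the other way for Il6, at 2 against 52.2 for Il6st, although the specific chain Il6ra was at 1.22. Il15, at 0.299, was also below Il15ra, at 0.972. Il31ra, the itch receptor chain of sensory neurons, was at 2.66 CPM per kb and its partner Osmr at 9.1. In which cells a ligand and its receptor were made cannot be read from whole cultures. The partners Cxcr6 (for Cxcl16), Ccr9 (for Ccl25), Il1b (for Il1r1) and Il18r1 (for Il18) did not reach the count minimum.

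In each culture, the partners named here and not given so far were as follows. Ccl5, an attractant of T cells, was at 0.425, 0.279 and 0.161 CPM with vehicle and 0.458, 0.343 and 0.229 CPM with HC-HA/PTX3, and Cxcl16, the ligand of CXCR6, at 3.17, 4.12 and 3.3 CPM and 4.72, 4.3 and 3.91 CPM. Ccr10, the receptor of CCL27, was at 0.15, 0.186 and 0.5 CPM with vehicle and 0.242, 0.396 and 0.406 CPM after treatment. The groups overlapped for all 3 genes, Ccl5 and Cxcl16 were higher in the treated culture of every pair, and none was called. Il7r was at 0.749, 1 and 0.893 CPM with vehicle and 1.1, 1.32 and 1.32 CPM with HC-HA/PTX3, where the groups were separate. Il11ra1 was at 5.57, 6.17 and 5.7 CPM and 6.01, 7.23 and 4.9 CPM, and Il6ra at 11.2, 13 and 7.27 CPM and 11.3, 11.1 and 6.53 CPM. Il1r1, the signalling receptor of IL-1, was at 26.7, 40.3 and 24.6 CPM with vehicle and 25.9, 38.5 and 20.7 CPM after treatment, lower in all 3 pairs by small amounts (log2 fold change -0.12). Il15ra, which presents IL-15 to other cells, was at 3.45, 4.14 and 5.38 CPM and 5.39, 4.91 and 4.67 CPM, and Il31ra at 15.1, 18.6 and 11.7 CPM and 18.4, 16 and 16.8 CPM. Osmr, the oncostatin M receptor chain, was at 97.1, 124 and 109.7 CPM with vehicle and 104, 108 and 105 CPM with HC-HA/PTX3. Csf1r, the growth receptor of macrophages, was at 6.17, 11.1 and 9.36 CPM and 6.36, 8.18 and 5.41 CPM (log2 fold change -0.40, 95% interval -0.75 to -0.053). None of these was called.

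**Figure D3:**
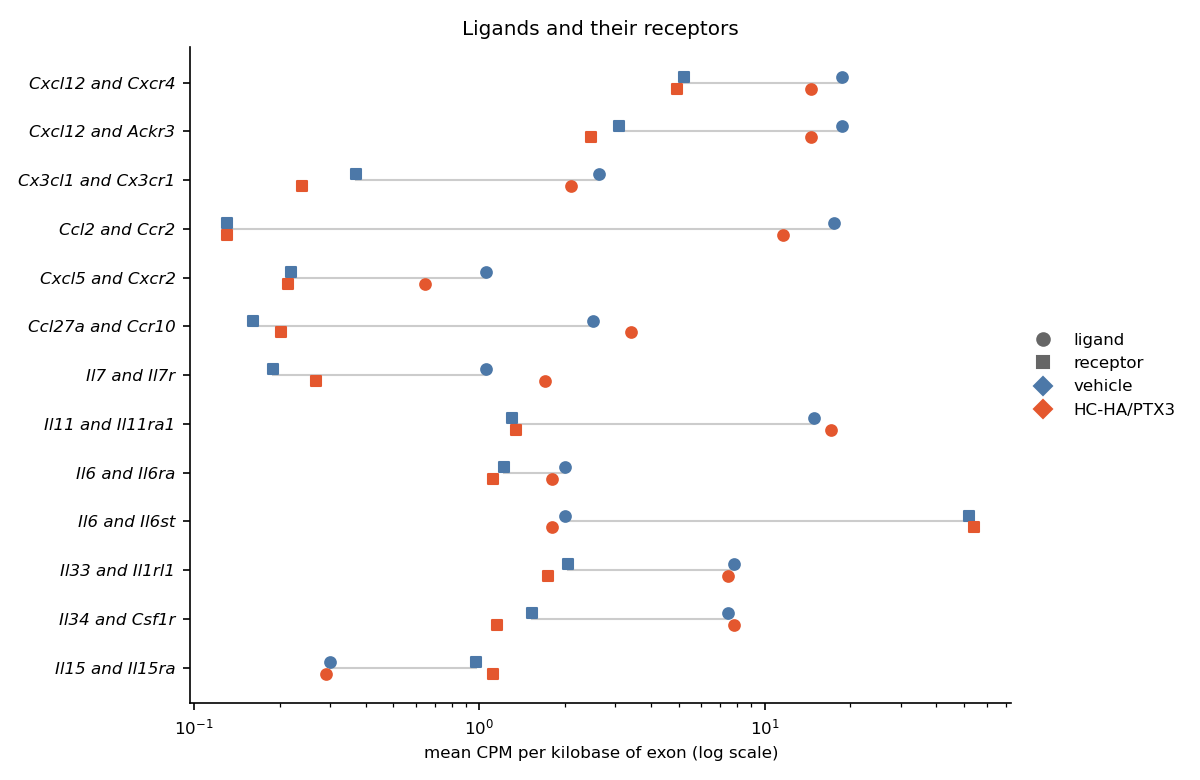
Mean CPM per kilobase of exon on a log axis for ligands (circles) and their receptors (squares), with vehicle (blue) and HC-HA/PTX3 (orange), n = 3 cultures each. Grey lines join the vehicle values of a pair, from 0.131 for Ccr2 to 17.5 for Ccl2 in the widest chemokine pair.

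For most of the 79 genes, the range over the 3 vehicle cultures was wider than the fitted treatment difference. These are unlike quantities, since a range over single cultures holds counting error and tends to exceed a mean difference over pairs. The share over all tested genes is not given. In 70 of the 79 genes the log2 ratio of the highest to the lowest vehicle culture (0.1 CPM added to each) exceeded the absolute fitted difference, with medians of 0.83 and 0.27. The ratio was 3.84 for Il11, 2.80 for Il1rl1, 2.82 for Cxcl5 and 2.59 for Cxcl1, all highest in replicate 3 of both groups. Cxcl1, a neutrophil attractant, was at 1.35, 2.42 and 8.64 CPM with vehicle and 1.91, 3.01 and 9.42 CPM with HC-HA/PTX3. Il1rl1, the IL-33 receptor chain ST2, was at 4.3, 7.36 and 30.5 CPM and 4.88, 8.02 and 23.2 CPM. For Cxcl2 and Cxcl3, close relatives of Cxcl1, vehicle replicate 1 held 1 count each, and without that pair their fitted log2 fold changes were 0.31 and 0.074, against 0.77 and 0.60 with it. The windows before Cxcl1 and Cxcl10 printed above carry kappaB matches and that of Il11 AP-1 letters, which was not tested as a cause. The windows of Il1rl1 and the other window of Il11 held none of the 3 motifs, nor did those of Ccl22, Cxcl9 and Il18. The ratios of Ccl22, Cxcl9 and Il18 were 1.69, 1.64 and 1.59, against 1.66 for Cxcl10.

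**Figure D4:**
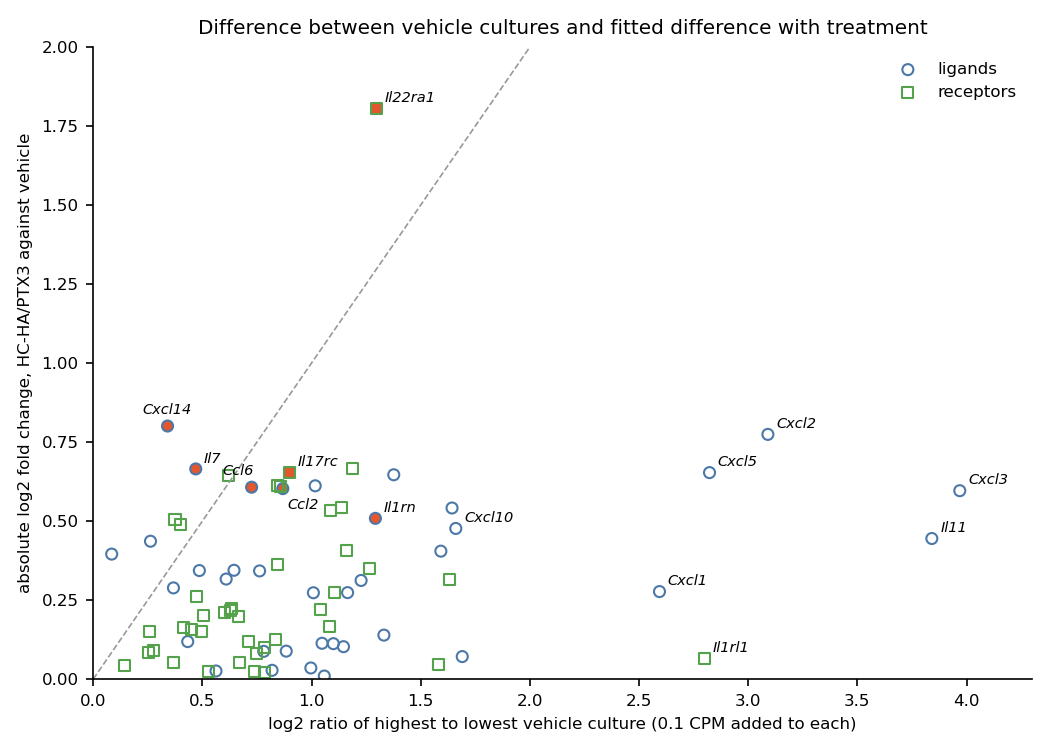
For 78 of the 79 genes, the log2 ratio of the highest to the lowest vehicle culture (0.1 CPM added) against the absolute fitted log2 fold change with HC-HA/PTX3, with circles for ligands, squares for receptors and filled symbols for called genes. The dashed line marks equality, and 70 genes lie below it, with Cxcl3 and Il11 farthest to the right.

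Some genes were highest in replicate 3 and others lowest. Of the 79 genes, 18 were highest in replicate 3 of both groups and 26 were lowest there, and in 51 the highest vehicle and the highest treated culture had the same number. The replicate 3 cultures deviated together over all 18277 tested genes (correlation 0.774). The matching shares over all tested genes are not given, so these counts are not read as particular to the 79. The satellite glia markers moved with the replicate number: their summed level was 2175, 1259 and 505 CPM in vehicle replicates 1, 2 and 3 and 2060, 1274 and 508 CPM in the HC-HA/PTX3 cultures, with Apoe the most abundant, no marker at 0 and 0 of 7 called. Fibroblast markers were lower in replicate 3 too, at 2138, 2152 and 895 CPM with vehicle and 1151, 1382 and 303 CPM with HC-HA/PTX3. Myelinating Schwann cell markers fell from replicate 1 to 3, at 401, 234 and 122 CPM with vehicle and 343, 179 and 81.1 CPM with HC-HA/PTX3. These Schwann cell sums were also lower in the treated culture of every pair, with 1 of 5 genes called lower. Their part in the differences between replicates was not tested.

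Some marker lists also held genes called lower with the treatment, beside the falls of Ccl2, Ccl6 and Il1rn. Of 15 macrophage markers, 4 were called lower (C1qa, C1qb, Cd163 and Tyrobp) and 0 higher, with a median log2 fold change of -0.40. Fitted values were below 0 in 12 and above 0 in 3. Over all tested genes 5.38% were called lower, the share to set beside the lists below as well. The 15 macrophage markers summed to 111, 146 and 122 CPM in the vehicle cultures and 102, 146 and 90 CPM in the treated cultures. These sums were the same to 3 digits in pair 2 and lower in the treated culture of pairs 1 and 3. Lyz2, the most abundant of them, was at 33.2, 44.5 and 40.4 CPM with vehicle and 34.9, 51.5 and 33.3 CPM with HC-HA/PTX3 and was not called. Mrc1, at means of 1.14 CPM per kb with vehicle and 1.45 after treatment, and Cd68, at 11.5 and 11.4, were not called either. Cd163, a scavenger receptor of resident macrophages, was at 0.649, 0.954 and 0.679 CPM and 0.135, 0.396 and 0.0762 CPM (log2 fold change -1.98, edgeR, adjusted p = 0.00841). Its counts were low, and 0.0762 CPM stood for 3 counts in HC-HA/PTX3 replicate 3. No macrophage marker was at 0 in all libraries, and the part of this cell type in these 3 falls was not tested.

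Neutrophil markers were few, with a summed level of 9.49, 17 and 10.8 CPM with vehicle and 5.2, 9.44 and 9.4 CPM with HC-HA/PTX3, S100a9 the most abundant and 3 of 7 tested genes called lower (Ngp, Mpo and Elane, list median -0.75). Of 6 fibroblast markers, 3 were called lower (Col1a1, Col1a2 and Col3a1, list median -0.63), and Col3a1, the most abundant, was at 669, 738 and 266 CPM with vehicle and 386, 538 and 84.8 CPM after treatment. Dcn, Lum and Pdgfra moved less and were not called. Their means were 19.8, 9.97 and 2.58 CPM per kb with vehicle and 18.7, 8.73 and 2.18 with HC-HA/PTX3. The fibroblast sums given above, which include the collagens, were lower in the treated culture of every pair, as were Cxcl14 and Ccl2. The part of fibroblasts in those results was not tested. Mural cell markers summed to 463, 544 and 417 CPM and 458, 511 and 279 CPM, with Rgs5 the most abundant and Acta2 called lower of 5.

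In the other lists no gene was called with treatment. The 8 neuronal markers summed to 6184, 5481 and 6004 CPM with vehicle and 6265, 5761 and 6511 CPM with HC-HA/PTX3, with Tubb3 the most abundant and 0 called, so the defining markers of the labelled cell type were present in all 6 cultures. Endothelial markers summed to 257, 275 and 310.0 CPM and 264, 311 and 283 CPM, with Cdh5 the most abundant and 0 of 7 called. T cell markers were at or near 0: Cd3g had no count in any library, which allows a level of up to 0.0808 CPM (3 counts, for counting error only), and the sums of 7 genes, 1.2, 2.09 and 2.95 CPM and 2.1, 2.11 and 2.36 CPM, came mainly from Lck. B cell markers summed to 0.899, 0.722 and 1.05 CPM and 0.754, 0.659 and 1.07 CPM, with Cd79a the most abundant, and mast cell markers to 1.07, 0.745 and 0.393 CPM and 1.19, 0.844 and 0.482 CPM, with Cpa3 the most abundant. In each of these 3 lists 1 gene passed the low-count filter and 0 were called. The lymphocytes that IL-7 acts on elsewhere were thus represented by almost no marker RNA.

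**Figure D5:**
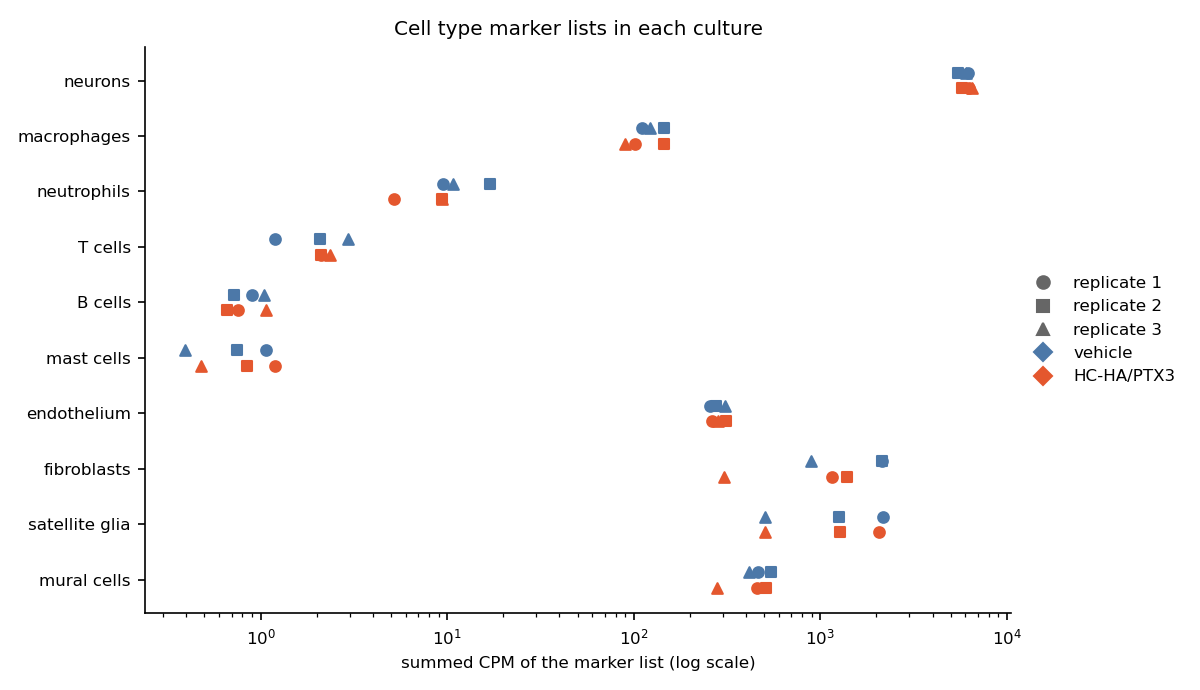
Summed CPM of 10 cell type marker lists on a log axis in the 6 cultures, vehicle in blue and HC-HA/PTX3 in orange, with 1 symbol per replicate number (n = 3 per group). Neuronal markers are the highest in every culture, and satellite glia and fibroblast markers are lowest in replicate 3 of both groups.

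Many of these genes lie in clusters, defined here as at least 4 of the 79 with gaps under 1000000 bases. In the cluster at chr11:82035571-82116799 (Ccl2, Ccl7, Ccl11 and Ccl8), 1 of 4 genes was called and 3 had a fitted value below 0, with a median log2 fold change of -0.46. In the neighbouring cluster at chr11:83525778-83649355 (Ccl5, Ccl9, Ccl6 and Ccl3), 1 of 4 was called, with a median of -0.10. The neutrophil attractants at chr5:90759360-90905938 (Cxcl5, Cxcl3, Cxcl1 and Cxcl2) had 0 calls, and only Cxcl5 had a fitted value below 0. Their median of 0.44 rested on the single counts of Cxcl2 and Cxcl3 in vehicle replicate 1, since the 3 values above 0 were 0.074 (Cxcl3), 0.20 (Cxcl1) and 0.31 (Cxcl2) without that pair. The IL-1 receptor cluster at chr1:40074079-40551705 (Il1r2, Il1r1, Il1rl2, Il1rl1 and Il18rap) had 0 calls. Paralogous chemokines can share reads, and how the counting treated these is not given.

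The signalling genes downstream of these receptors were counted from lists. Of 22 tested JAK, STAT and SOCS genes, 0 were called higher and 2 lower, with a median log2 fold change of -0.066. Stat2, a factor of interferon signalling, was at 152, 134 and 85.6 CPM and 98.2, 101 and 61.7 CPM with vehicle and HC-HA/PTX3 (log2 fold change -0.50, edgeR, adjusted p = 0.00128). It was lower in all 3 pairs. Stat3, the most abundant of the list and the factor of gp130 signalling, was not called (log2 fold change -0.081).

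Of 29 tested genes of IL-1 receptor and NF-kB signalling, 1 was called in each direction, and the median was 0.029. Casp1, the inflammasome protease that matures IL-1β and IL-18, was at 8.79, 12.4 and 7.88 CPM with vehicle and 15.3, 18.9 and 14.4 CPM with HC-HA/PTX3, with separate groups (log2 fold change 0.76, edgeR, adjusted p = 0.00156). Traf6, the ubiquitin ligase below MyD88, was at 33.1, 34.8 and 40.5 CPM and 19.7, 24.9 and 23.2 CPM, also without overlap (log2 fold change -0.68, edgeR, adjusted p = 0.00119). The NF-kB targets Nfkbia and Tnfaip3 in the same list were not called (log2 fold changes -0.033 and 0.089). Of 10 tested other chemokines and chemoattractant receptors (median -0.15, with Xcr1 at 0 counts in every library), the chemerin receptor Cmklr1 was called lower, at 14.8, 11.6 and 4.52 CPM with vehicle and 10, 9.02 and 2.95 CPM after treatment (log2 fold change -0.51, edgeR, adjusted p = 0.0154). Of 19 tested genes for other cytokines of these families and their receptors (median -0.16), Csf1, the macrophage growth factor that shares its receptor with Il34, was called lower, at 103, 129.7 and 229 CPM with vehicle and 72.6, 97.6 and 128 CPM with HC-HA/PTX3 (log2 fold change -0.58, edgeR, adjusted p = 0.00165).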

How the data were processed

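RNA was measured in 6 cultures. The authors sequenced ribosomal RNA-depleted libraries, aligned reads to mm10 and deposited raw counts per gene symbol. The methods and processing notes name HISAT2 and featureCounts, while the file headers name STAR. Members, lists and named genes were chosen with earlier results of these data known. Genes are named where called, where the study names them (such as Ccl2, Cxcl5, Il7 and Il11), where among the 3 most abundant of a class, where the largest uncalled difference of a class at a mean of at least 1 CPM, or where a listed pair holds them. Others (Cxcl10, Il3ra, Il1rap, Cxcl1, Cxcl2, Cxcl3, Cxcl9, Ccl22, Il17ra and Ccl12) were added after their values were seen.

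Counts were tested in R 4.3.3 with edgeR 4.0.16 (filterByExpr, TMM, glmQLFit and glmQLFTest, replicate number as a block, Benjamini-Hochberg adjustment over all 18277 genes). The methods use a batch term, and the replicate number of the labels stood in for it. Same-numbered cultures deviated together from their group means (correlations across genes of 0.631, 0.536 and 0.774, against -0.613 to 0.148 for other pairs). Alternatives were no replicate block, DESeq2 1.42.0, limma-voom (limma 3.58.1), ComBat-seq (sva 3.50.0) followed by limma, upper-quartile scaling, 2 other low-count filters, no fold-change threshold and each replicate pair left out. An exact permutation test of 3 against 3 cultures, without the replicate block, cannot give a p-value under 0.1. Exchanging labels only within same-numbered pairs allows fewer arrangements, so its limit is higher still. Within each group, no 2 libraries were duplicates (chi-square per degree of freedom 34.5 to 119). Vehicle and treated libraries were not compared with each other in this way. Exon lengths, positions and overlaps came from GENCODE M21, where all 79 symbols matched, and promoters from RefSeq. The promoter table held no entry for, among others, Ccl2, Ccl5, Ccl7, Ccl11, Ccr10, Cxcl5, Cxcl11, Cxcl16, Il7, Il10ra, Il10rb, Il12rb1, Il15, Il17ra, Il24, Il27ra and Il34.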

Additional observations from a re-analysis of the deposited data

How the results depend on the processing

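The replicate block decided the calls. With no replicate block, edgeR called 0 ligands higher and 0 lower, 0 receptors higher and 0 lower, and 0 of all tested genes in either direction, while the same-numbered pairs deviated together. Whether the replicate number is the batch of the study was not tested.

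With the block, 1 ligand was called higher and 4 lower. ComBat-seq then limma gave 2 higher, and leaving out each pair gave 1 to 2 higher and 2 to 4 lower. For receptors the counts were 1 higher and 2 lower. ComBat-seq then limma gave 2 higher and 4 lower, upper-quartile scaling 2 higher, the filter of at least 10 counts in every culture 0 higher, since Il22ra1 was not tested there, and no fold-change threshold 2 higher. Leaving out each pair gave 1 to 2 receptors higher and 0 to 1 lower. Of all tested genes, 607 were higher and 984 lower. DESeq2 gave 373 higher, ComBat-seq then limma 1078 higher, no fold-change threshold 1402 higher and 2103 lower, and the left-out pairs 248 to 582 higher and 630 to 989 lower.

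Of the 8 called genes, DESeq2 with the block called all 8, and limma-voom, ComBat-seq and upper-quartile scaling each 7, without Il1rn. Ccl2, Cxcl14, Il7 and Il22ra1 were called in every alternative with the block that tested them. Il11 was called without replicate 3 and after ComBat-seq, Cxcl5 and Cx3cr1 after ComBat-seq and with all genes kept, Ccl11 without replicate 2 and with all genes kept, Cxcl10 without replicate 3, Il1rap without replicate 2, Il21r and Il18rap after ComBat-seq, and Il3ra without replicate 3 and with upper-quartile scaling. Pair 3 also carried much of the log2 fold changes of Ackr3, Ccl7, Ccl27a and Il21r, which were -0.21, -0.17, 0.28 and -0.35 without it, and Il11 was 0.25 without replicate 1. Among 447 values of 41 named genes over these settings, each labelled by its call alone, 417 had the same call, or none, as the chosen fit. Of the rest, 21 lost a call, 9 gained one and 0 were called in the opposite direction. Values with an unchanged label still moved, as Cxcl12 went from -0.27 to -0.037 without replicate 3. Uncalled values near 0 also changed sign, as for Il34 (0.035 to -0.065 without replicate 1) and Cxcr4 (-0.045 to 0.037 without replicate 2).

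Each group held 3 cultures, so genes near the thresholds depended on single pairs. Bulk RNA gave no cell of origin, and no protein was measured. Genes under 1 CPM had wide intervals.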
